A study of Mus musculus with 4 samples.

Results

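Open chromatin at the Rab GTPase genes was examined in G1ER cells lacking Chd7 and in wild-type G1ER cells, using peak lists from ATAC-seq, an assay in which a transposase cuts and tags accessible DNA. Members were the protein-coding genes of the mouse RefSeq annotation (GRCm38) whose symbol starts with Rab and a digit, leaving out symbols that hold gap, gef, ip or fip. This gave 61 genes of 21887 protein-coding genes. Of these, 59 encode Rab GTPases. The other 2 were kept by the rule but encode other proteins: Rab3il1, an exchange factor for Rab proteins, and Rab5if, a factor named for its interaction with Rab5. A gene's regions were the merged peaks of the 4 libraries inside its span or within 1 kb of its ends, and 45 of 15328 merged regions qualified, at 39 genes.

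G1ER is a mouse erythroblast line derived from Gata1-null cells that carries GATA1 fused to an estrogen receptor domain, so every library shares that background. All cells grew with erythropoietin and stem cell factor medium, and no treatment was labelled. Chd7 encodes a nucleosome-remodelling helicase, and the series asks how its loss alters accessibility. Group KO was the Chd7-/- line (2 libraries) and group WT the wild-type line (2 libraries), each made from 50000 cells. The labels give a time of 1 h for the first library of each genotype and 2 h for its second, but not what was timed. Both KO libraries carry the same code, so genotype and clone cannot be told apart, and no label says that replicates were separate cultures, so their spread may be technical.

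Rab proteins are small GTPases that mark membrane compartments. An exchange factor loads a Rab with GTP on its membrane, the GTP-bound form recruits effectors that move, tether or fuse vesicles, and a GTPase-activating protein switches it off. Prenylation by geranylgeranyl transferase with an escort protein anchors Rabs in membranes, and GDI proteins extract them. In erythroid cells the endosomal Rabs serve the transferrin receptor cycle that imports iron, and in platelets and mast cells other Rabs serve granule release.

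The lists held 12443 and 11376 nuclear peaks in KO replicates 1 and 2, and 11084 and 12043 in WT replicates 1 and 2. Read totals were unknown. The commonest lowest background under the peaks, which scales with depth if reads were extended alike, was 1.04 and 1.01 fragments per base in KO and 0.787 and 1.08 in WT. Chd7 itself had 0 regions in its span or linked to it, so the lists offer no check of the genotype labels. Of 10 erythroid marker genes, Epor, Tfrc and Nfe2 had a region at a gene end in all 4 libraries, whereas Slc4a1, Hba-a1 and Hbb-b1 had no region. The 10 granulocyte, macrophage and lymphoid markers had no region, the megakaryocyte gene Gp9 had a gene-end region in all 4 libraries, and Itga2b, also of that lineage, and the mast cell gene Cpa3 had regions away from their ends.

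Most Rab genes with open chromatin had it at their starts, in both genotypes. A region at a gene edge, meaning overlap with the 1 kb either side of a gene end, was called in all 4 libraries at 32 of 61 Rab genes (52.5%), beside 6997 of 21887 protein-coding genes (32.0%). A further 2 genes, Rab13 and Rab24, had an edge region in 3 libraries. Another 5 genes (Rab3il1, Rab6b, Rab21, Rab27b and Rab31) had regions only away from their ends. The remaining 22 genes had no region. The shares of Rab genes and of all genes are a description, since Rab genes differ from the average gene in length (median 23213 against 17169 bases) and in other ways that were not matched.

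The promoter table used here (RefSeq, GRCm38.p6) gives 300 bases per start, from 250 before it to 50 after, and listed 66 windows for 50 of the 61 genes. Rab4a, Rab7b, Rab18, Rab2a, Rab26, Rab27b, Rab30, Rab36, Rab37, Rab38 and Rab44 have no entry. Of the 45 regions, 30 overlapped a listed promoter of their own gene and 28 of those were called in all 4 libraries. All 30 had their summit within 300 bp of the listed start, 18 of them within 100 bp. The median position was −41, that is upstream of the start, and the range was −286 at Rab28 to 197 at Rab4b. The plot of summit position shows this cluster around the start.

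**Figure D1:**
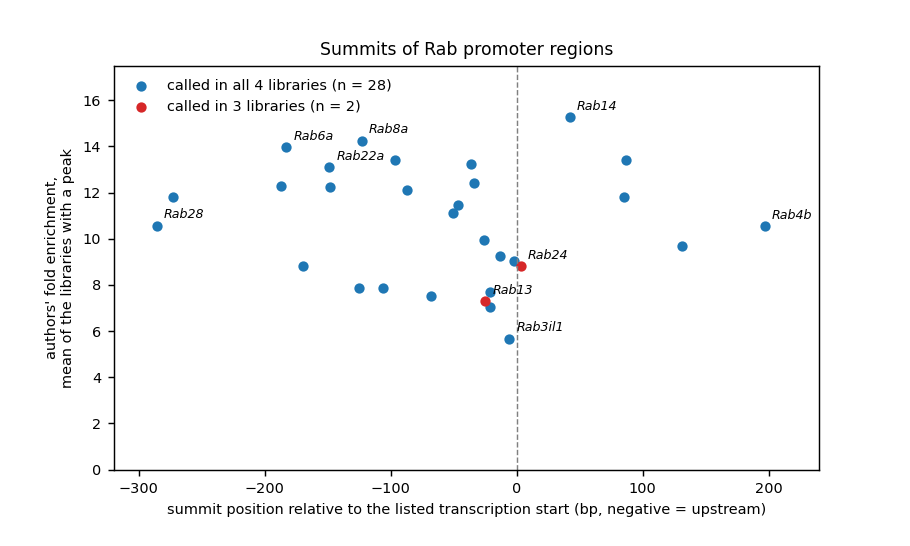
Position of the summit of each Rab promoter region relative to the nearest listed transcription start (x, bp; negative is upstream) against the authors' fold enrichment averaged over the libraries with a peak (y). All 30 points, 28 regions called in all 4 libraries (blue) and 2 called in 3 libraries (red), lie within 300 bp of the start, and Rab14 is highest.

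Promoter windows of the Rab genes on which the results turn are given here 5′ to 3′ on the gene's strand. Rab14 and Rab8a ranked highest among Rab regions by their weakest library. Rab8b and Rab35 had the smallest unadjusted p values between genotypes, Rab9 and Rab9b are close relatives of which 1 was open, and Rab13 and Rab24 were missed in 1 KO library each. Capitals mark matches to any of 5 motifs on either strand. The GATA motif was searched as AGATAA, in a second form as AGATAG, in another as TGATAA and in the last as TGATAG. The RUNX motif was TGTGGT, with the variant form written TGCGGT. The ETS motif was searched as CCGGAA, and the CCAAT box by the letters of its name. The GC box was searched as GGGCGG. A match is a run of letters and not a shown binding site.
Rab14 promoter, chr2:35201071-35201370, minus strand: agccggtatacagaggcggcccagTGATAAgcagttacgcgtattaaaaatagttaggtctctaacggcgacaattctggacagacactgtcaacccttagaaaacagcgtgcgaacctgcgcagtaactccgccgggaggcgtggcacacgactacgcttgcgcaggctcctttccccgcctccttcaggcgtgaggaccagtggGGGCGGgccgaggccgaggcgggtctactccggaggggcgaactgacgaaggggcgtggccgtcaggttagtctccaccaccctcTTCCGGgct
Rab8a promoter, chr8:72160950-72161249, plus strand: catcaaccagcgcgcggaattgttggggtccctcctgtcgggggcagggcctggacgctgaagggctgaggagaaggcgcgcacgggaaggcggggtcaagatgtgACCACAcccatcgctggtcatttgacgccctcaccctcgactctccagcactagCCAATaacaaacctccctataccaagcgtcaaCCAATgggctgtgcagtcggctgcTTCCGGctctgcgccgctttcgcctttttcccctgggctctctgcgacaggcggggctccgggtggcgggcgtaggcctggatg
Rab8b promoter, chr9:66919656-66919955, minus strand: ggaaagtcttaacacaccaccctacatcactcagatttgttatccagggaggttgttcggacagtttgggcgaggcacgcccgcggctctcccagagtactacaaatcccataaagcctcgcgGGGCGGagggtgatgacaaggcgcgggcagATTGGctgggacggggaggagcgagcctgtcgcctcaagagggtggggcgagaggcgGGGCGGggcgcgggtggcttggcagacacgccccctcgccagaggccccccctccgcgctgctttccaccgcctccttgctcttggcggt
Rab35 promoter, chr5:115631737-115632036, plus strand: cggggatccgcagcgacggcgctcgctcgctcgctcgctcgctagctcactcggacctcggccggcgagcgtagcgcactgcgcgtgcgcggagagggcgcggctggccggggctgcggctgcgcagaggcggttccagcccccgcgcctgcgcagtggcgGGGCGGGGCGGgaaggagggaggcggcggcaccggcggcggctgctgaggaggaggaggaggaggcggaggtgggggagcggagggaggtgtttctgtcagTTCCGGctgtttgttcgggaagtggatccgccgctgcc
Rab9 promoter, chrX:166479818-166480117, minus strand: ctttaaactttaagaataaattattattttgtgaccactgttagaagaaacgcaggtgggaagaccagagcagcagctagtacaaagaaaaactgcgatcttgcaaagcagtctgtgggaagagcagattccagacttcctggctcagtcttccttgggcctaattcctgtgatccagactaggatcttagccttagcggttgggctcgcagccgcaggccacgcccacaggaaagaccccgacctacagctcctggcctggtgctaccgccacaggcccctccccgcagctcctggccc
Rab9b promoter, chrX:136868507-136868806, minus strand: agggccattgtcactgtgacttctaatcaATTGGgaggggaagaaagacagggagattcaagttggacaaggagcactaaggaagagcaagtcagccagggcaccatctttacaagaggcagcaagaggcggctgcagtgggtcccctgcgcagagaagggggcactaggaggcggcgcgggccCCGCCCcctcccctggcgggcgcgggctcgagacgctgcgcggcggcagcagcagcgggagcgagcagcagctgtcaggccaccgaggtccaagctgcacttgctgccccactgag
Rab13 promoter, chr3:90213465-90213764, plus strand: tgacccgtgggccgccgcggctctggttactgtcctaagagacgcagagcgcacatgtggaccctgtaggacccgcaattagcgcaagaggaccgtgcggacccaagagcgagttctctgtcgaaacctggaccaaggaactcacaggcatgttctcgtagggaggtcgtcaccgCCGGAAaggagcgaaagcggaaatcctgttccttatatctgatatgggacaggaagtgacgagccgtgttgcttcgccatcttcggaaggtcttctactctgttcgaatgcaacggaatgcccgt
Rab24 promoter, chr13:55321931-55322230, minus strand: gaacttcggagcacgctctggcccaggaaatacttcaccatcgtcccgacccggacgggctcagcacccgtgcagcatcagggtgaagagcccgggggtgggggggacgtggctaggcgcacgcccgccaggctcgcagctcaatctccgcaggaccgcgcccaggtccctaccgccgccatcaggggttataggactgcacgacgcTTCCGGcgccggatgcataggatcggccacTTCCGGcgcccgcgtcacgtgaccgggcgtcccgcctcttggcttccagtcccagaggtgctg
The Rab14 window held 1 GATA, 1 ETS and 1 GC box match and the Rab8a window 2 CCAAT boxes, 1 ETS and 1 RUNX match. The Rab9 window, open in all 4 libraries, held none of the 5 motifs and 9 CpG dinucleotides, while the Rab9b window, in no region, held 1 CCAAT box, 1 GC box and 17 CpG dinucleotides. Rab13 and Rab24 shared ETS matches (1 and 2) and had neither a CCAAT nor a GC box in these windows.

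Open and closed Rab windows differed in CpG content. The 32 windows (28 genes) in a region of all 4 libraries held a median of 25.5 CpG dinucleotides (range 9 to 43), the 2 windows in a region of 3 libraries held 25 and 32, and the 32 windows in no region held a median of 10.5 (range 1 to 45). Over all 21263 protein-coding windows the medians were 24.0 in regions of all 4 libraries and 5.0 in no region, so the Rab windows followed the general pattern. The ranges overlapped. Windows of Rab15, Rab23, Rab34, Rab39, Rab3a and Rab6b with 20 or more CpG dinucleotides lay in no region, although Rab3a was open over another listed start, and open windows with fewer were found at Rab9, Rab11a, Rab11b, Rab28, Rab5b, Rab3il1, Rab3a, Rab43 and Rab7.

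**Figure D2:**
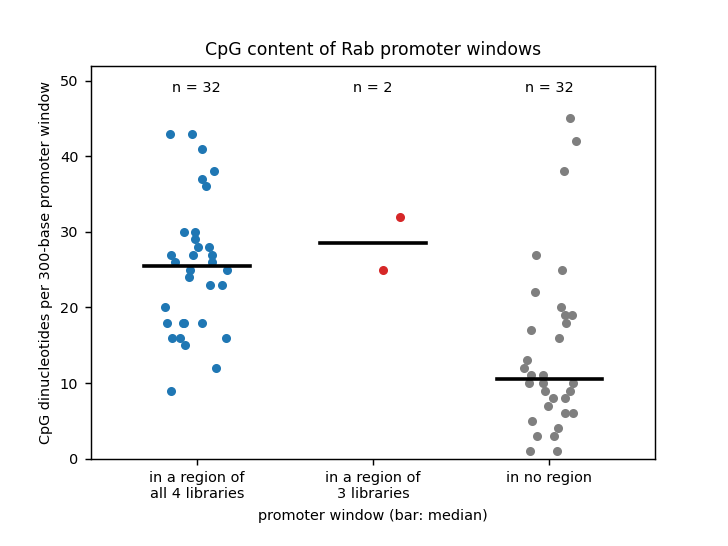
CpG dinucleotides per 300-base Rab promoter window (y) by whether the window lay in a region of all 4 libraries (n = 32), of 3 libraries (n = 2) or in no region (n = 32); bars are medians. The medians are 25.5, 28.5 and 10.5, and the outer groups overlap.

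Motif shares were given for the same windows. A GC box was found in 28 of 32 open Rab windows (87.5%) and in 17 of 32 Rab windows in no region (53.1%), beside 73.9% and 30.9% over all windows in those states and 46.2% of all windows. A CCAAT box was found in 19 open windows (59.4%) and 8 in no region (25%), beside 42.9% and 36.3% over all windows and 38.2% in any state. ETS matches were in 10 (31.2%) and 4 (12.5%), beside 37.6% and 7.94% over all windows and 18.7% in any state. GATA matches were in 7 (21.9%) and 10 (31.2%), beside 15.0% and 32.2%, and 26.0% in any state. RUNX matches were in 8 (25%) and 9 (28.1%), beside 20.9% and 22.1%, and 21.6% in any state. In 0 Rab windows did matches of different motifs overlap. The windows of neighbouring starts of a gene share bases, and no test was made on these shares.

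Genes were grouped by the compartment their products serve. Below, a value per library is the summit pileup, the number of fragments over the summit that the deposited fold enrichment and p-value imply. The median pileup over regions called in all 4 libraries was 26 and 23 in KO replicates 1 and 2, against 24 and 28 in WT replicates 1 and 2, so raw pileups run somewhat higher in KO replicate 1 and WT replicate 2. Percentiles rank a region's fold enrichment within its own list.

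**Figure D3:**
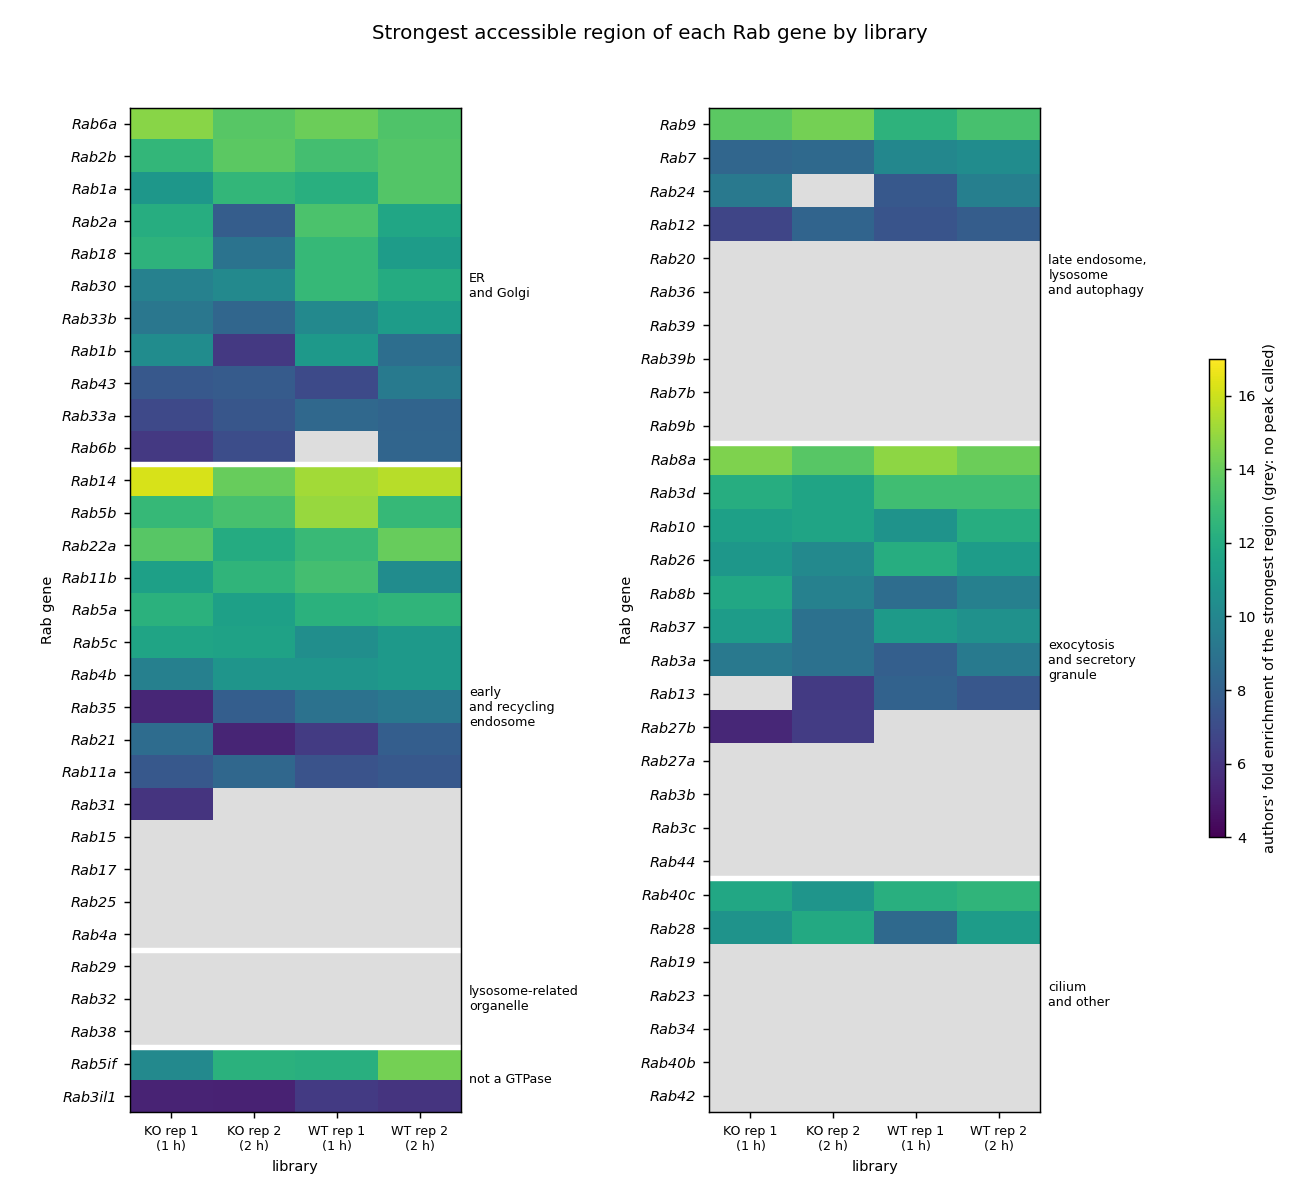
Authors' fold enrichment (colour) of the strongest region of each of the 61 Rab genes (rows, by compartment) in KO replicates 1 and 2 and WT replicates 1 and 2 (columns); grey means that no peak was called. Of 11 ER and Golgi genes none is grey throughout, whereas all 3 genes of lysosome-related organelles are, and Rab27b has colour in the KO columns alone.

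Of 11 ER and Golgi Rabs, 10 had an edge region in all 4 libraries (90.9%), beside 32.0% of all protein-coding genes, and the other, Rab6b, had a region inside the gene. Rab6a, which returns cargo through the Golgi, ranked highest of them by its weakest library (chr7:100607177-100607886), with 51 and 48 fragments in KO against 47 and 50 in WT. This region also holds the start of Mrpl48, a mitochondrial ribosomal protein gene on the other strand. Rab2b, which acts at the Golgi, was open at chr14:52278913-52279757 with 44 and 45 fragments in KO against 39 and 52 in WT, and shares its region with the start of Tox4. Before correction for depth, KO and WT values overlapped at both genes. After centring on library medians they still overlapped at Rab2b. At Rab6a the centred KO values lay above WT, with log2 differences of 0.00 at 1 h and 0.22 at 2 h. Centred values stayed apart in this way, in either direction, at 38.7% of the 8704 regions compared.

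Rab1a and Rab1b, which drive transport from the ER to the Golgi, differed in strength. Rab1a (chr11:20200841-20201646) had 43 and 44 fragments in KO against 47 and 58 in WT, and Rab1b (chr19:5106636-5107259) had 23 and 15 in KO against 29 and 24 in WT. Before correction for depth both KO values lay below both WT values at each gene. After centring each library on its median, the genotypes overlapped at Rab1b and stayed apart at Rab1a. Centred KO and WT values stayed apart at 38.7% of the 8704 regions compared. Rab2a, the ER-to-Golgi relative of Rab2b, had 34 and 19 fragments in KO against 33 and 34 in WT at chr4:8535348-8536119, the KO replicate 2 library being low. Rab18, a lipid droplet and ER Rab, had 38 and 25 in KO against 34 and 38 in WT at its edge (chr18:6764787-6765345). It also had a region inside the gene (chr18:6774589-6775011) with 15 and 10 in KO and 10 in WT replicate 1, and no peak in WT replicate 2.

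Rab30, a Golgi Rab, had 24 and 28 fragments in KO against 33 and 31 in WT, in a region where the listed start is that of 4632427E13Rik on the minus strand. Rab33b, a Golgi Rab that binds the autophagy protein ATG16L1, had 32 and 25 against 33 and 39. KO values were the lower ones at Rab30 and Rab33b before correction for depth. After centring on library medians they stayed lower at Rab33b. At Rab30 the centred log2 difference, KO minus WT, was −0.55 at 1 h and 0.13 at 2 h, so the genotypes overlapped. Rab43 (17 and 20 in KO, 16 and 27 in WT) was weaker. The region of Rab33a (13 and 14 in KO, 14 and 16 in WT) lay at the start of its neighbour Aifm1, and the listed Rab33a start itself was in no region. Rab6b, the neuronal relative of Rab6a, had a region 4085 bp from its nearer end with 15 and 17 fragments in KO and 23 in WT replicate 2, and no peak in WT replicate 1.

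Of 15 early and recycling endosome Rabs, 9 had an edge region in all 4 libraries (60.0%). Rab14, which moves cargo between endosomes and the Golgi, ranked highest of all Rab regions by its weakest library, with 60 and 49 fragments in KO against 58 and 65 in WT at chr2:35200737-35201457. Its lowest percentile in any library was 96.2. Rab22a, an early endosome Rab, had the highest mean pileup, with 94 and 65 in KO against 74 and 101 in WT (chr2:173659154-173660148). KO replicate 1 and WT replicate 2 were high there, so the genotypes overlapped.

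All 3 members of the Rab5 family, which governs fusion of early endosomes, were open. Rab5a had 73 and 53 fragments in KO against 55 and 67 in WT (chr17:53478660-53479670), and Rab5b 53 and 52 against 57 and 57 (chr10:128695796-128696711). Rab5c had 35 and 38 in KO against 31 and 36 in WT at its start (chr11:100737942-100738552). Before correction for depth, the Rab5a and Rab5c values of KO and WT overlapped, and those of Rab5b differed by at most 5 fragments. After centring on library medians, KO values were the higher ones at Rab5c, with log2 differences of 0.06 at 1 h and 0.35 at 2 h. The genotypes did not overlap there, as at 38.7% of the 8704 regions compared. A second Rab5c region, inside the gene, was called with 10 fragments in WT replicate 2 alone.

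The recycling Rabs Rab11a and Rab11b were unequal in level. Rab11b had 55 and 45 fragments in KO against 52 and 47 in WT, and Rab11a 17 and 19 against 15 and 18. Rab4b, which acts in fast recycling, had 37 and 46 in KO against 38 and 55 in WT, while its relative Rab4a had no region. Rab21, an integrin endocytosis Rab, split by library and not by genotype, with 29 and 15 fragments in KO against 15 and 29 in WT at an internal start 1807 bp from its gene end. Rab31 had 13 fragments in KO replicate 1 alone, 54880 bp from its start, and Rab15, Rab17 and Rab25, the last 2 known from epithelial cells, had no region.

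Rab35, a Rab of fast recycling and cytokinesis, also varied between libraries. It had 15 and 27 fragments in KO against 27 and 34 in WT at chr5:115631624-115632178, so KO replicate 1 was the low library and KO replicate 2 equalled WT replicate 1. The start of 1110006O24Rik, on the other strand, lies in the same region.

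Of 10 late endosome, lysosome and autophagy Rabs, 3 had an edge region in all 4 libraries (30.0%), near the 32.0% of all protein-coding genes. Rab9, which returns receptors from late endosomes to the Golgi, had 33 and 34 fragments in KO against 25 and 35 in WT (chrX:166479413-166480039). Rab7, the main late endosome and lysosome Rab, had 21 and 21 in KO against 24 and 28 in WT. Rab12, a Rab tied to degradation of the transferrin receptor, had 20 and 18 in KO against 17 and 24 in WT.

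Rab24, an autophagy-related Rab, had an edge region (chr13:55321823-55322165) with 24 fragments in KO replicate 1 and 14 and 23 in WT, and no peak in KO replicate 2. The region also holds the start of Prelid1 on the other strand. Rab7b, Rab9b, Rab20, Rab36, Rab39 and Rab39b had no region.

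Among 13 exocytosis and secretory granule Rabs, 7 had an edge region in all 4 libraries (53.8%). Rab8a, which carries vesicles from the Golgi to the cell surface and cilium, had 73 and 65 fragments in KO against 79 and 85 in WT (chr8:72160691-72161536), a lowest percentile of 95.2. Its relative Rab8b had 31 and 24 in KO against 17 and 23 in WT (chr9:66919378-66919968). Before correction for depth, both KO libraries were thus below both WT libraries at Rab8a and above both at Rab8b. After centring on library medians, KO and WT values did not overlap at 38.7% of the 8704 regions compared. Neither gene passed adjustment (adjusted p = 0.727 for Rab8a and 0.511 for Rab8b by limma).

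Rab10, an exocytic Rab known for moving the glucose transporter GLUT4, had 3 regions, the most of any Rab gene. Its start (chr12:3309540-3310350) had 49 and 49 fragments in KO against 44 and 53 in WT. A region 18704 bp inside the gene had 8 and 11 in KO and 13 in WT replicate 2, and a region 24314 bp inside had 11 in KO replicate 1 alone. The start ranked at or above percentile 73.6 in each library, and the inner regions at or below percentile 35.5 of their lists.

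Of the Rab3 family, which controls regulated exocytosis, Rab3d (chr9:21917875-21918519; 35 and 39 in KO, 38 and 48 in WT) and Rab3a (28 and 24 in KO, 18 and 29 in WT) were open, while Rab3b and Rab3c had no region. The edge regions of Rab26 (chr17:24527734-24528389; 37 and 31 in KO, 33 and 35 in WT) and Rab37 (52 and 40 in KO, 50 and 57 in WT) lay over starts of neighbours, Traf7 and Slc9a3r1. At the other end of Rab26 a region was called in KO replicate 2 alone, with 9 fragments. The regions over Traf7 and Slc9a3r1 lay outside the Rab genes but inside the 1 kb limit, with gaps of 665 bases to Rab26 and 108 to Rab37. The nearest region left out lay 1184 bases from Rab4b, at Egln2, with fold enrichments of 10.9 and 11.9 in KO and 11.3 and 10.7 in WT.

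Rab13, a Rab of epithelial junctions, had a region over its start (chr3:90213382-90213901) with 15 fragments in KO replicate 2 and 16 and 18 in WT, and no peak in KO replicate 1. The ribosomal protein gene Rps27 starts in the same region on the other strand. Rab27a and Rab44, granule Rabs of immune cells, had no region.

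Rab27b, a Rab of platelet dense granule release, had the 1 Rab region called in both KO libraries and neither WT library, at chr18:70055156-70055427. It lay 76163 bp from the nearer gene end and had 11 and 13 fragments in KO, with fold enrichments of 5.45 and 6.31. Its lowest percentile was 22, a weak peak in its own lists. A second region in the gene was called in KO replicate 2 alone, with 9 fragments. An uncalled region can still hold fragments below the calling threshold, so absence from WT lists is not absence of signal.

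The remaining groups hold 12 genes. Rab29, Rab32 and Rab38, Rabs of lysosome-related organelles such as melanosomes, had no region. Of the 7 ciliary and other Rabs, 2 had an edge region in all 4 libraries (28.6%), near the share of all protein-coding genes. Rab40c, which carries a SOCS box of ubiquitin ligases, had 67 and 57 fragments in KO against 60 and 75 in WT (chr17:25919589-25920595). Rab28, a ciliary Rab, had 37 and 37 in KO against 23 and 44 in WT (chr5:41707648-41708631). Rab19, Rab23, Rab34, Rab40b and Rab42 had no region. Of the rule's 2 genes that are not GTPases, Rab5if had 32 and 36 fragments in KO against 33 and 52 in WT, and Rab3il1, at an internal start, 11 and 13 against 12 and 13.

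In order of pileup after centring each library on its median (log2 scale), the 32 edge regions called in all 4 libraries ran from Rab22a (1.67), Rab8a (1.54) and Rab40c (1.32) at the top to Rab12 (−0.35), Rab11a (−0.53) and Rab33a (−0.78) at the bottom. Neighbours in this order differed by more than the SD within genotypes only between Rab8a and Rab40c, between Rab12 and Rab11a, and between Rab11a and Rab33a. The order of all other neighbours is within the spread of the libraries.

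How did loss of Chd7 change these regions? Few differences were found, and none passed the test. Rab regions called numbered 41 and 41 in KO libraries against 37 and 39 in WT libraries, a difference of 3 with means of 41.0 and 38.0 ± 1.41 (SD, n = 2 each; the KO SD is 0). An exact two-sided permutation test gave p = 0.33, the smallest that 2 libraries against 2 allow. The difference was 4 at 1 h and 2 at 2 h, and it was 1 with peaks of −log10 q of at least 5 (exact permutation p = 0.67). Rab genes with an edge region numbered 33 and 33 in KO against 34 and 34 in WT (difference −1, exact permutation p = 0.33).

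The surplus of calls in KO lay inside genes. Of the 8 Rab regions away from gene ends and listed starts, 6 and 5 were called in the KO libraries against 1 and 3 in the WT libraries (exact permutation p = 0.33), and 0 were called in all 4. They had fold enrichments of 4.42 to 8.22 and widths of 200 to 423 bases. The 32 edge regions called in all 4 had fold enrichments of 5.41 to 16.2 and widths of 459 to 1012 bases. Those 32 were kept for being called in every library, so this contrast is partly set by that choice. Edge regions called in fewer libraries included one of 200 bases at Rab26 (fold enrichment 4.50 in KO replicate 2) and one of 343 bases at Rab24. Over all 4183 regions inside protein-coding genes and at no gene edge, 2976 and 2582 were called in KO against 2378 and 2805 in WT (exact permutation p = 0.667), and WT replicate 1, the library with the lowest background, had the fewest in both sets. The part of that library's depth in the Rab difference was not tested. Of the 35 Rab edge regions, 33 and 34 were called in KO against 34 and 34 in WT.

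The share of Rab regions exclusive to a genotype was near the background. Of 45 Rab regions, 1 was called in both KO libraries and neither WT library, beside 2.71% of all merged regions. 0 Rab regions were called in both WT libraries and neither KO library, beside 2.25% of all merged regions. Leaving out 1 library loosens both classes. Regions exclusive to KO then numbered 3 without KO replicate 1 (adding Rab26), 3 without KO replicate 2 (adding Rab10 and Rab31), 2 without WT replicate 1 (adding Rab18) and 3 without WT replicate 2 (adding Rab10 and Rab6b), with Rab27b among them each time. These are 4.44% to 6.98% of Rab regions, beside 4.31% to 11.4% of all merged regions under the same omissions. Regions exclusive to WT numbered 1 without KO replicate 1 (Rab24), without KO replicate 2 (Rab13) and without WT replicate 1 (Rab5c), and 0 without WT replicate 2, beside 4.22% to 8.30% of all merged regions.

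Summit pileups gave a graded comparison. The 34 Rab regions called in all 4 libraries were part of a limma fit to log2(pileup + 1), centred on library medians, over 8704 regions. 0 of the 34 passed an adjusted p of 0.05, beside 0.195% of all regions fitted (0.172% higher and 0.0230% lower in KO), and 2 had an unadjusted p under 0.05 (5.88%), beside 8.92%. The lowest adjusted p was 0.511. The median difference, KO minus WT, was −0.047 (middle 50% from −0.16 to 0.10), beside 0.023 over all regions fitted, with 14 regions higher and 20 lower in KO. This balance turned without KO replicate 1 (19 higher, 15 lower) and without WT replicate 2 (18 higher, 16 lower). The centred values of KO and WT did not overlap at 12 of 34 Rab regions, 6 higher and 6 lower (35.3%), beside 38.7% of all regions fitted (21.4% higher and 17.3% lower in KO). With depth taken from the lowest background in place of the median, the median of all regions moved to −0.210, and 4 Rab regions were higher and 30 lower in KO. Relative to all regions the Rab median was −0.071 under both scalings, which follows by construction, since each shifts all regions of a library alike. Under either scaling, 0 Rab regions passed.

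The largest single differences were at the starts of Rab8b and Rab35. At Rab8b the log2 difference, KO minus WT, was 0.53 (SE 0.25, adjusted p = 0.511 by limma), with 0.72 at 1 h and 0.33 at 2 h. At Rab35 it was −0.48 (SE 0.24, adjusted p = 0.558 by limma), with −0.92 at 1 h and −0.05 at 2 h. Without KO replicate 1 the Rab35 difference was 0.00, so that library alone carries it. Rab1b came next at −0.40 (SE 0.25, adjusted p = 0.670 by limma), with −0.43 and −0.37 at the labelled times.

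Rab28 had 0.29 (SE 0.19, adjusted p = 0.681 by limma) and Rab2a −0.30 (SE 0.21, adjusted p = 0.710 by limma). Without WT replicate 1 the Rab28 value was −0.06, and without KO replicate 2 the Rab2a value was 0.02, so each rests on 1 library. Of the 5, Rab8b and Rab1b kept their sign without any 1 library, with ranges of 0.43 to 0.63 and −0.64 to −0.16. The 5 were picked by p value in these same libraries. At Rab8b both centred KO values lay above both WT values, so leaving out 1 library could not turn the sign. Centred values stayed apart like this, in either direction, at 35.3% of Rab regions and 38.7% of all regions fitted.

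**Figure D4:**
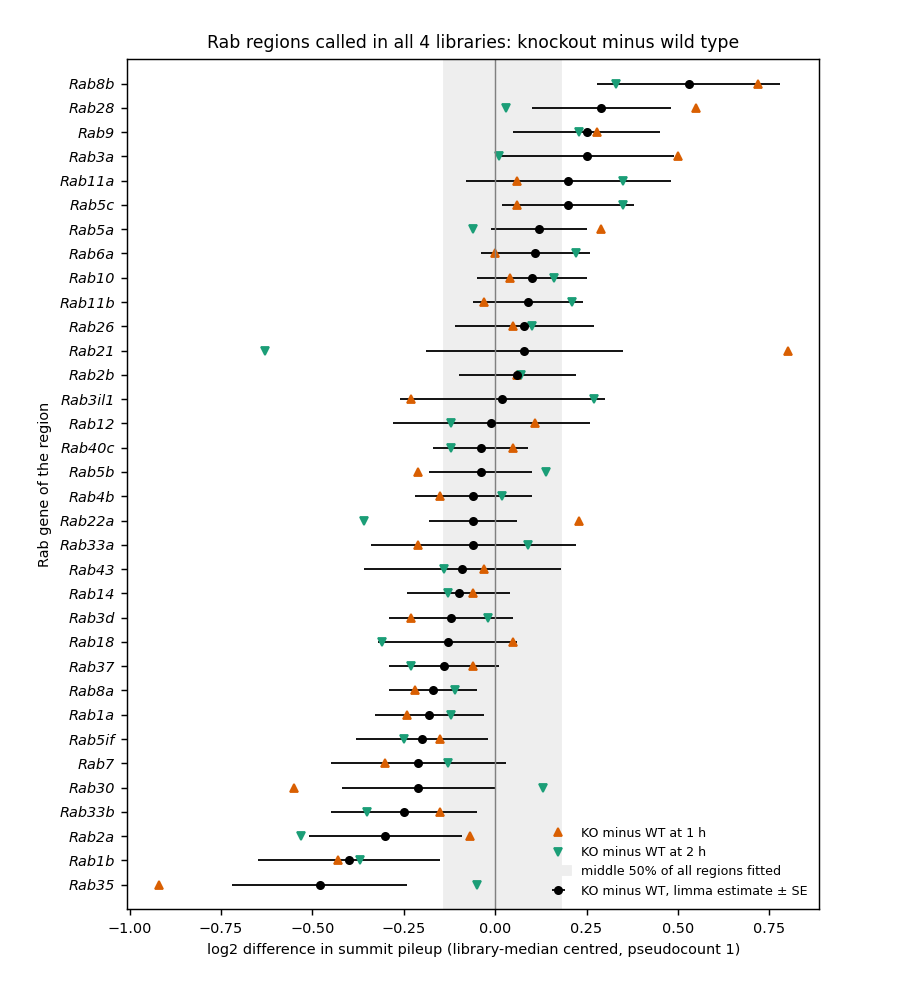
Difference in log2 summit pileup, KO minus WT (x), for the 34 Rab regions called in all 4 libraries (rows, by gene); black points and bars are the limma estimate ± SE, triangles the differences at 1 h (up) and 2 h (down), and the grey band the middle 50% of all 8704 regions fitted (−0.14 to 0.18). Rab8b (0.53) and Rab35 (−0.48) are the extremes, and the 1 h and 2 h values of Rab21 lie on opposite sides.

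The genes that control and read Rab proteins were described from a list of 109 regulators and effectors, all present in the annotation. An edge region was called in all 4 libraries at 55 of them (50.5%), beside 32.0% of all protein-coding genes. By role these were 5 of 8 escort, prenylation and GDI genes, 17 of 30 exchange factors, 20 of 34 GTPase-activating proteins and 13 of 37 effectors, the last share (35.1%) near that of all genes. Their 121 regions included 4 called in both KO libraries alone and 1 called in both WT libraries alone, beside the 2.71% and 2.25% given above for all regions.

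The KO-only regions reported by gene were at Tbc1d5, a GTPase-activating protein of Rab7, Tbc1d8b, of the same protein family, and Rab11fip3, an effector of Rab11. Those of Tbc1d8b (12 and 10 fragments in KO) and Rab11fip3 (9 and 12) were at a gene edge, and that of Tbc1d5 (12 and 11) was inside the gene. The WT-only region lay inside Evi5, a GTPase-activating protein gene, with 9 and 11 fragments in WT. These 4 were weak peaks, at or below a percentile of 29.4 in 1 of their lists.

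Of the list's 70 regions called in all 4 libraries, 0 passed the limma test after adjustment, beside 0.195% of all regions fitted, and 9 had an unadjusted p under 0.05 (12.9%), beside 8.92%. The smallest p was at a region inside Dennd1a, an exchange factor for Rab35, with 16 and 16 fragments in KO against 9 and 8 in WT (log2 difference 0.92, SE 0.27, adjusted p = 0.153 by limma). At Hps1, part of the exchange factor for Rab32 and Rab38, the edge region had 15 and 21 in KO against 32 and 31 in WT (−0.71, SE 0.25, adjusted p = 0.259 by limma). KO and WT did not overlap at either gene, as at 42.9% of the list's regions and 38.7% of all regions fitted.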

How the data were processed

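ATAC-seq was done on 2 Chd7-/- and 2 wild-type G1ER libraries, and 1 peak list per library was deposited. The tools listed, per the submitters' processing notes, are Bowtie2 2.2.1 and MACS2 2.1.0; positions are on GRCm38, per the peak names. How reads were shifted, duplicates handled and the threshold set is not given in the sources used here. The deposited lists hold a score (about 10 times −log10 q), the fold enrichment, and −log10 p and −log10 q, all by the authors' caller.

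Chromosomes 1 to 19, X and Y were used; 2 peaks per list on the mitochondrial genome were dropped. Fold enrichment, as (pileup + 1) over (background + 1), and the Poisson p-value fix the whole-number pileup, which was recovered for 99.99% of peaks per library within 0.001 in −log10 p. This assumes that the caller did not rescale pileups. Touching or overlapping peaks were merged into 15328 regions. A gene of the rule was linked by its span plus 1 kb. A region's value in a library is that of its peak with the highest fold enrichment. limma 3.58.1 in R 4.3.3 (moderated test with trend, Benjamini-Hochberg adjustment) was fitted to 8704 of the 8705 regions that every library called, 1 lacking a recovered pileup. Python 3.11.15 ran the rest (pandas 2.3.3, numpy 2.4.6, scipy 1.17.1, matplotlib 3.10.9). On simulated pileups for the same comparison, 75.0% of 200 regions changed 3-fold were called, with 2 calls among the unchanged of 8704 regions. Every simulated region stayed in the fit, whereas a real region had to be called in all 4 libraries. No smaller change was simulated, while the Rab log2 differences ran only from −0.48 to 0.53. The share called at changes of that size is therefore not known.

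The members, gene lists and compartments were chosen with earlier results of these data known. Named members are those with an exclusive region, the 10 strongest edge regions, the 5 genes with most regions, the 5 smallest p values and edge regions missed in some libraries; the others complete the 61 genes. Of the regulators, those with exclusive regions follow the rule (1 is not reported here), and Dennd1a and Hps1 were named after their values were seen. Alternatives were lists of equal length, −log10 q of at least 5, summit windows of 250 bp either side, 500 bp edges, nearest ends within 100 kb, GTPases alone, another depth scaling, a pileup minimum of 20, a pseudocount of 5, a block on replicate number, and omission of 1 library at a time.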

Additional observations from a re-analysis of the deposited data

Results flagged for a closer look

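The start region of Rab21 was marked because its differences between genotypes had opposite signs at the labelled times. The log2 pileup difference, KO minus WT, was 0.80 at 1 h and −0.63 at 2 h, from 29 and 15 fragments in KO replicates 1 and 2 against 15 and 29 in WT replicates 1 and 2. With 1 library per genotype and time, the difference between times was not tested. Opposite signs of any size occurred at 12 of 34 Rab regions (35.3%), beside 45.0% of all regions fitted, and opposite signs with both sizes over 0.25 at 8.19% of all regions fitted.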

How the results depend on the processing

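Rab27b remained the KO-only Rab region (count 1) and the WT-only count stayed at 0 under equal lists, both −log10 q settings, summit windows, 500 bp edges, nearest ends and GTPases alone. Edges of 500 bp and GTPases alone could not remove this region, which lies deep inside a GTPase gene. Its −log10 q was 5.24 and 7.10 in KO, with no peak in WT, so it had to pass both −log10 q settings, in KO replicate 1 narrowly. Leaving out 1 library gave KO-only counts of 2 to 3 and WT-only counts of 0 to 1, since fewer calls are then required or forbidden. The difference in Rab regions per library stayed positive under every setting run (2 to 4 with 1 library left out, 2.50 with equal lists, 1 at −log10 q of at least 5 and 3.50 by nearest end). The difference in genes with an edge region was 0 with regions linked by nearest end, −0.500 with 500 bp edges and −1 without any 1 library. The count of Rab regions past the limma threshold was 0 under every setting run, with 0 without any 1 library; the lowest adjusted p was between 0.171 and 0.860. The median log2 difference of Rab regions was −0.281 with depth from the lowest background, −0.081 with a mean pileup of at least 20 and −0.040 with a pseudocount of 5, and −0.078 to 0.020 with 1 library left out; the cause was not tested. Among all regions fitted, 15 were called higher and 2 lower in KO, against 3 and 14 with depth from the lowest background; calls numbered 5 without KO replicate 1, 14 without KO replicate 2 and 0 without either WT library. Leaving out 1 library turned the sign of uncalled values at Rab35 (−0.97 to 0.00), Rab28 (−0.06 to 0.64) and Rab2a (−0.62 to 0.02).

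With the replicate number as a block, 21 regions were called in all, against 17 without it, and 0 Rab regions, with a Rab median of −0.047. The libraries share only a number and a labelled time: the correlation of deviations from the group mean between KO replicate 1 and WT replicate 1 was 0.00217 over regions, so the pairing was not used. Where a library was left out, the genotype with 1 library was assumed to vary like the other. Total reads are unknown, and peaks with few fragments, such as those inside Rab10 or Rab27b, rest on 8 to 13 fragments.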

Other observations

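Beyond the 1 kb limit, 6 further regions had a Rab gene's end as their nearest within 100 kb, and 5 of them were called in all 4 libraries. By rank of fold enrichment the highest lay 95604 bases from Rab39b, an X-linked Rab with no region of its own (chrX:75673835-75674628), with 53 and 40 fragments in KO against 47 and 40 in WT. Regions 39372 bases from Rab2a (37 and 33 in KO, 34 and 38 in WT) and 11347 bases from Rab10 (66 and 60 in KO, 64 and 66 in WT) were similar in both genotypes. A region 16224 bases from Rab6a, inside Mrpl48, had 10 and 19 fragments in KO against 15 and 12 in WT. A region 2366 bases from Rab44, a large granule Rab known from mast cells, had 9 and 11 fragments in KO against 11 and 14 in WT. One 18892 bases from Rab28 was called in KO replicate 1 and WT replicate 2, with 11 and 13 fragments, and 0 of the 6 were exclusive to a genotype. After this wider search 20 Rab genes had no region by either link, among them Rab27a, Rab32 and Rab38, the Rabs of melanosome and lytic granule traffic. Regions nearer to another gene's end were not counted. Among these, one 1339 bases from Rab40b, at the edge of Wdr45b, was called in all 4 libraries. Another, 4991 bases from Rab27a at the edge of Pigb and Pigbos1, was called in both WT libraries and neither KO library.

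Within families of close relatives, both members were open at an edge in all 4 libraries for Rab1a and Rab1b, Rab2a and Rab2b, Rab8a and Rab8b, and Rab11a and Rab11b, and all 3 for Rab5a, Rab5b and Rab5c. The members were unequal for Rab4b and Rab4a, Rab6a and Rab6b, Rab7 and Rab7b, Rab9 and Rab9b, and Rab40c and Rab40b, where the second of each pair had no edge region in any library. In the Rab3 family Rab3a and Rab3d were open and Rab3b and Rab3c were not.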
